A study of Mus musculus with 10 samples.

Results

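The light-chain genes of the mouse were followed as 178 of the 25579 genes in each deposited expression table. They comprised every row whose symbol starts with Igk or Igl, except Igll1, which encodes the surrogate light chain λ5, and Iglon5, which is no immunoglobulin. The rows for these segments carried Ensembl identifiers, and symbols were assigned to 649 of 649 such identifiers. The kappa locus on chromosome 6 contributed 160 variable (V) segments, 5 joining (J) segments and the single constant (C) gene Igkc, and the lambda locus on chromosome 16 contributed 3 V, 5 J and 4 C segments. Of the 160 kappa V segments, 60 were annotated as pseudogenes.

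A light-chain gene is assembled when the RAG recombinase joins a V segment to a J segment, and the joined exon is then spliced to a C exon. Kappa and lambda recombination normally follow the pro-B cell stage, in pre-B cells, after a heavy chain has been made. Unrearranged V, J and C segments are also transcribed at a low level, and such germline transcripts accompany the opening of the locus. Pax5 is the transcription factor that commits progenitors to the B cell lineage, and R31Q is an amino acid substitution in its DNA-binding paired domain. In bulk RNA, a V or C count holds germline and rearranged transcripts together, and fewer cells of a type and less RNA per cell cannot be told apart.

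Polyadenylated RNA was measured in C57BL/6 bone marrow cells sorted directly from mice, with 2 libraries for each of 4 genotypes. The pro-B cells were Pax5+/+, Pax5+/- or Pax5 R31Q/-, and the R31Q allele, made with CRISPR/Cas9, lay over a null allele. Pax5+/- cells, with 1 wild-type and 1 null allele, match Pax5 R31Q/- cells in the number of alleles that are not null. The fourth genotype, Pax5 fl/fl Vav-Cre, is called Pax5-/- here. Its cells were labelled as progenitors, whereas the study's text calls them pro-B cells, and Vav-Cre deletes floxed alleles throughout blood cell development. Pax5 binding was mapped separately by ChIP-seq in pro-B cells cultured for 6 days, with 1 library labelled Rag2-/-, which carries wild-type Pax5, and 1 labelled Pax5 R31Q/-. The description of the second one names Rag2 in place of Pax5 with the same allele, so whether its cells could recombine these loci is not settled by the labels. The ages of the mice and the sorting gate of the Pax5-/- cells were not given in the sources used here.

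The 8 RNA libraries held 21648901 to 34528477 reads in genes, the fewest in Pax5-/- replicate 1, of which 3075 to 12719 fell in light-chain genes. Pax5 itself stood at 418 and 444 TPM (TPM is a share of transcripts corrected for gene length) in Pax5+/+, 272 and 287 in Pax5+/-, 306 and 293 in Pax5 R31Q/- and 1242 and 1409 in Pax5-/-. A count over the whole gene does not separate the deleted exon from the rest, so this value is no check of the deletion. The summed level of 6 myeloid markers was 2054 TPM in Pax5-/- replicate 1 and 311 TPM in replicate 2, and 394 to 1520 TPM elsewhere. These 2 libraries also differed in light-chain RNA, and results for Pax5-/- are therefore given for each of them.

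Of the constant regions, Iglc1 and Iglc3 of the lambda locus rose in cells without Pax5, while Iglc2 and the kappa gene Igkc were not called. Iglc3 (chr16:19065230-19065681) was at 28.5 and 28.5 TPM in Pax5+/+, 39.8 and 35.3 in Pax5+/-, 50.2 and 39.0 in Pax5 R31Q/- and 205 and 385 in Pax5-/-. Both Pax5-/- libraries lay above all 6 others. The mean rose from 28.5 ± 0.0407 TPM to 295 ± 127 TPM (SD, n = 2 each), a 10.3-fold difference, with a log2 fold change of 3.26 ± 0.27 (SE) on the log2(TPM + 1) scale and an adjusted p of 0.00012 by limma. Iglc1 rose 5.71-fold, from 18.1 to 103 TPM (adjusted p = 0.0024 by limma). Iglj1, the J segment that joins to Iglc1, rose from 7.56 and 6.36 TPM to 31.5 and 27.9 TPM (adjusted p = 0.019 by limma). Iglj3, the J segment in front of Iglc3, was at 18.4 and 59.6 TPM in Pax5-/- against 5.67 and 2.12 in Pax5+/+, and missed the threshold (adjusted p = 0.068 by limma). Because J exons are short, these levels rest on few reads. All 5 lambda J segments together held 7 and 4 reads in Pax5+/+ and 19 and 48 in Pax5-/-.

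The remaining lambda segments did not pass the test in this comparison. Iglc2, whose exons are 94.9% identical to those of Iglc3 over 454 aligned bases, was at 13.5 and 7.05 TPM in Pax5-/- and 7.28 and 10.9 TPM in Pax5+/+. Iglv1 was at 4.08 and 15.2 TPM in Pax5-/- and 9.01 and 6.59 TPM in Pax5+/+, so the genotypes overlapped. Iglv1 and Iglv2 are 96.9% identical over 351 bases, and only 74.1% and 70.9% of their 50-base windows occur once in the light-chain loci, so unique mapping can undercount both. Iglj2 and Iglj4 were listed at 0 in all 8 libraries, and Iglc4 did not exceed 0.5 TPM. Iglc1, Iglc3, Iglj1, Iglj3 and Iglv1 lie within 2010309G21Rik, a gene annotated on the opposite strand, and strand-specific counting was not stated, so reads of the opposite strand cannot be told apart from theirs.

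Jchain, which encodes the chain that joins secreted IgM and is a marker of plasma cells, was also high in Pax5-/-, at 273 and 408 TPM against 0.718 and 2.26 TPM in Pax5+/+. Of the 8 plasma cell markers tested, it was the 1 that rose, and Fkbp11 was the 1 that fell. Prdm1, the factor that defines plasma cells, was at 2.47 and 1.85 TPM in Pax5-/- and 1.35 and 6.36 TPM in Pax5+/+. The part of plasma cells in the lambda signal was not tested beyond these values.

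Igkc (chr6:70726435-70726966), the most abundant light-chain transcript in all libraries but Pax5-/- replicate 1, was at 764 and 985 TPM in Pax5+/+, 1217 and 854 in Pax5+/-, 1021 and 935 in Pax5 R31Q/- and 195 and 866 in Pax5-/-. The wide gap lay within Pax5-/-, whose replicate 2 overlapped the other genotypes, and Igkc was called in no comparison (adjusted p = 0.19 for Pax5-/- and 0.89 for Pax5 R31Q/- against Pax5+/+, both by limma). The lambda share of all light-chain TPM was 45.2% and 28.3% in the Pax5-/- libraries, against 4.65% to 8.04% in the other 6. Igkc exceeded the summed lambda C genes 10.2-fold to 18.5-fold in the 6 libraries of the other genotypes, whereas the ratios in Pax5-/- were 0.669 and 1.65.

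**Figure D1:**
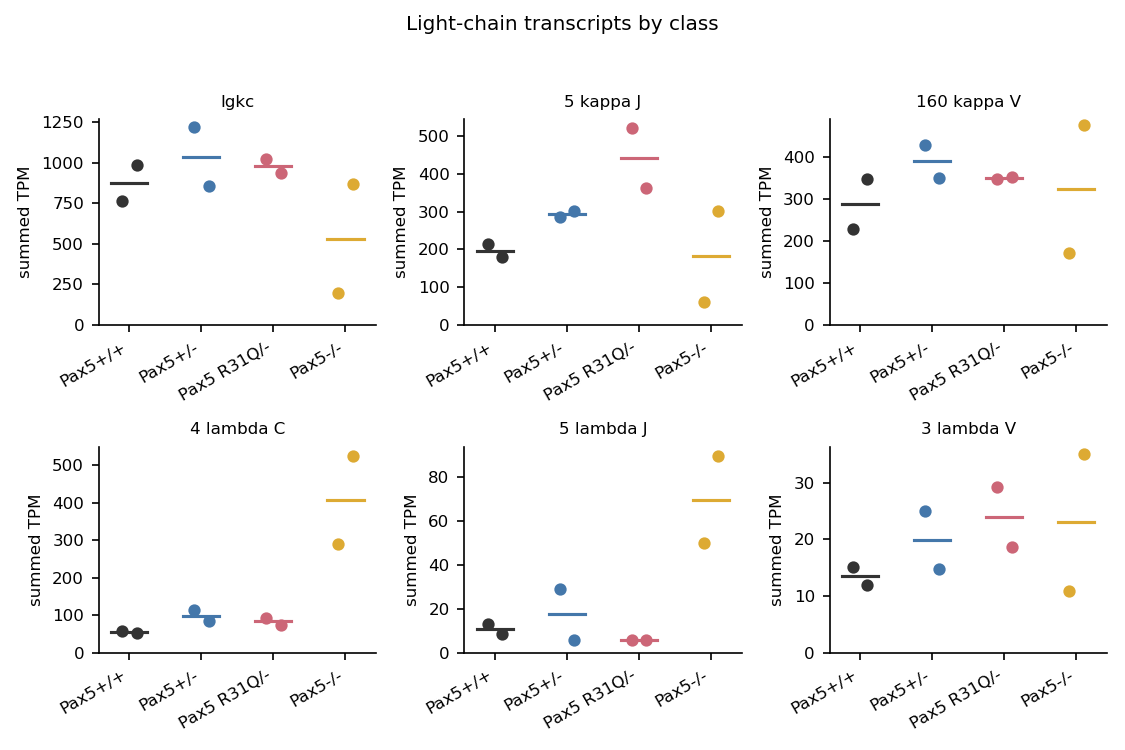
Summed TPM (vertical axis, from 0) of each class of light-chain segment in the 4 genotypes; dots are libraries and lines are means of 2. Lambda C in Pax5-/- lies at 291 and 525 TPM, above the range of 53.3 to 115 TPM in the other 6 libraries, while Igkc, kappa J and kappa V of Pax5-/- spread widely.

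**Figure D2:**
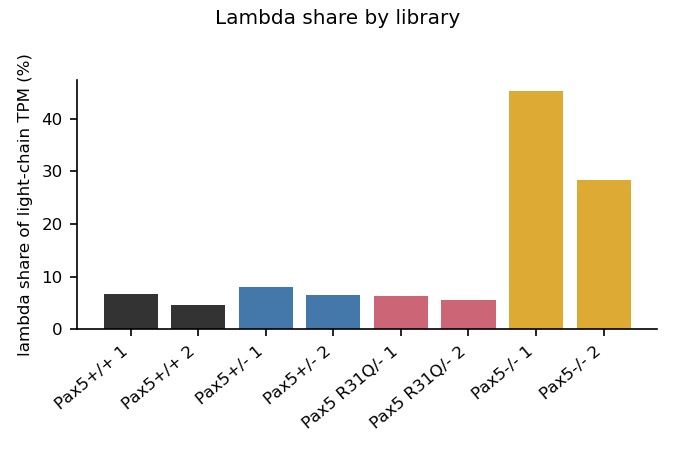
Lambda share of all light-chain TPM (percent, vertical axis from 0) in each of the 8 libraries, coloured by genotype. The Pax5-/- bars reach 45.2% and 28.3%, and no other bar exceeds 8.04%.

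The J segments show what distinguishes the 5 kappa and the lambda joining exons. Their sense strands in GRCm38 follow, with the bases that code the start of framework region 4 in capitals.
Igkj1 (chr6:70722562-70722599): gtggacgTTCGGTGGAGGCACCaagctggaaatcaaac
Igkj2 (chr6:70722916-70722958): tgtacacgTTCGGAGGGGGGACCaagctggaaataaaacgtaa
Igkj3 (chr6:70723223-70723260): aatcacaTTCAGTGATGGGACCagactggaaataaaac
Igkj4 (chr6:70723548-70723585): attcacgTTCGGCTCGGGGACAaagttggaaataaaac
Igkj5 (chr6:70723886-70723927): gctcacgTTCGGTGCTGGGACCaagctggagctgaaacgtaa
Iglj1 (chr16:19063225-19063262, minus strand): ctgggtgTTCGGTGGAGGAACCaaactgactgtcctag
Iglj3 (chr16:19067041-19067078, minus strand): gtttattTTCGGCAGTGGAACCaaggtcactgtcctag
The kappa J exons, 38 to 43 bases long, are shorter than the 50-base reads, so that each of their reads runs into flanking or joined sequence. Igkc and the 5 kappa J segments also lie within Gm30211, a gene annotated on the same strand, whose reads cannot be told apart from theirs.

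All 5 kappa J segments had higher means in Pax5 R31Q/- than in Pax5+/+, but none passed the test. Their sum was 215 and 179 TPM in Pax5+/+, 285 and 302 in Pax5+/-, 522 and 363 in Pax5 R31Q/- and 61.3 and 302 in Pax5-/-. The R31Q/- libraries lay above the other 6, 2.24-fold over Pax5+/+ in the mean. In reads, the sum rests on 120 and 90 in Pax5+/+, 292 and 198 in Pax5 R31Q/- and 25 and 172 in Pax5-/-. Igkj5, the segment nearest to Igkc, was at 149 and 89.2 TPM in Pax5 R31Q/- and 47.9 and 46.0 TPM in Pax5+/+ (log2 fold change 1.28 ± 0.75 SE, adjusted p = 0.39 by limma). Igkj3, which is not used in functional kappa chains, was at 58.6 and 54.1 TPM against 18.9 and 21.2 TPM (adjusted p = 0.40 by limma). Between Pax5 R31Q/- and Pax5-/-, Igkj2 was the kappa J segment called higher (107 and 82.0 against 23.2 and 64.2 TPM; adjusted p = 0.043 by limma). Igkj4 was at 0 in Pax5-/- replicate 1 and at 50.3 TPM in replicate 2.

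Kappa V segments were called in both directions in Pax5-/-. Of the 119 light-chain genes tested, 33 were lower and 21 higher in Pax5-/- than in Pax5+/+ (limma, adjusted p below 0.05), or 27.7% and 17.6%. Over all 13436 genes tested, 19.7% were lower and 16.2% higher, so the members' shares exceeded the background in the lower direction and were near it in the higher one. The median log2 fold change was -0.24 over the members and -0.11 over all genes. The 33 lower genes were all functional kappa V segments, but only 3 of the 18 pseudogenes tested, against 67 of the 86 functional segments, reached the filter of 1 TPM in a Pax5+/+ library, so a decrease of pseudogenes could hardly be seen. The 21 higher genes were 18 kappa V segments, 9 of them pseudogenes, with Iglc1, Iglc3 and Iglj1.

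V segments within 1 Mb of Igkj1 were nearly silent without Pax5. The 50 segments in this stretch summed to 67.1 and 69.0 TPM in Pax5+/+, 116 and 108 in Pax5+/-, 75.3 and 65.4 in Pax5 R31Q/- and 3.31 and 7.61 in Pax5-/-. Both Pax5-/- libraries lay far below all others, 12.5-fold below Pax5+/+ in the mean. This sum includes every segment, also those under the filter. In reads, it rests on 344 and 314 in Pax5+/+ and 12 and 40 in Pax5-/-. In this stretch, 38 and 37 segments had a read in Pax5+/+, and 8 and 15 had one in Pax5-/-. Of the 34 tested, 25 were lower in Pax5-/- and none higher, and all 34 had a negative log2 fold change, with a median of -1.39. Taking the 17 segments with no read in a genotype at a floor of 3 reads, the median log2 ratio was -2.65 over 30 segments. The loss covered both transcriptional orientations, with 8 of 11 tested segments on the strand of Igkc lower and 17 of 23 on the other strand, which join to J by inversion.

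Families that lie wholly within this stretch showed the loss together. The 9 Igkv6 segments summed to 12.7 and 18.2 TPM in Pax5+/+ and to 0 and 0.193 TPM in Pax5-/-, and 8 of 8 tested were lower. The 12 Igkv8 segments summed to 17.3 and 12.9 TPM in Pax5+/+ and 0.271 and 1.87 TPM in Pax5-/-, with 5 of 7 tested segments lower. The 13 Igkv3 segments, which lie closest to the J segments, summed to 18.6 and 16.0 TPM and 2.48 and 4.18 TPM, with 6 of 9 lower. Igkv6-25 (chr6:70215400-70215957) had 35 reads in the Pax5+/+ libraries together and none in Pax5-/- (adjusted p = 0.00041 by limma). Igkv5-39 had 55 reads in Pax5+/+ and none in Pax5-/- (adjusted p = 0.0037 by limma). A fitted fold change for such a gene depends on the added 1 TPM and is not a bound.

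**Figure D3:**
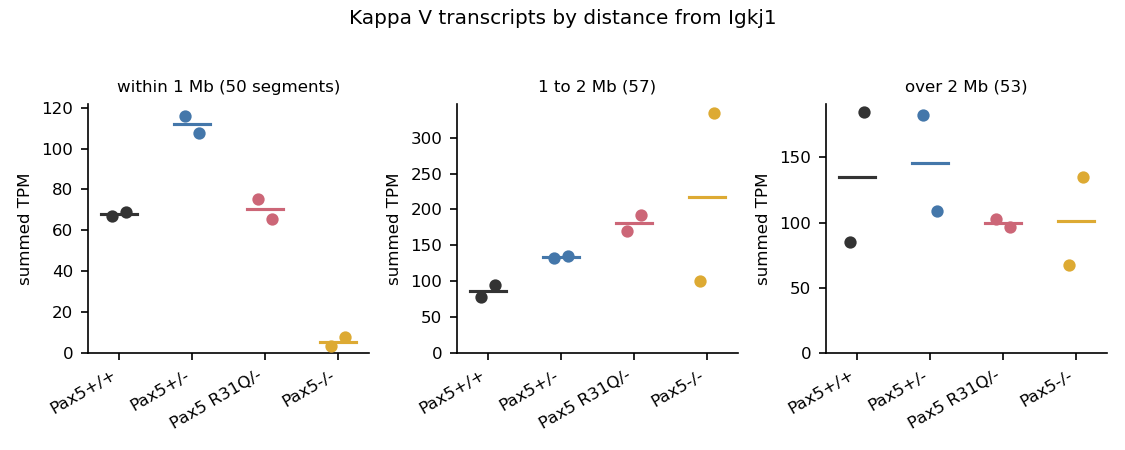
Summed TPM (vertical axis, from 0) of kappa V segments in 3 intervals of distance from Igkj1, by genotype; dots are libraries and lines are means of 2. Within 1 Mb the Pax5-/- libraries lie at 3.31 and 7.61 TPM against 65.4 TPM or more elsewhere, and at 1 to 2 Mb both Pax5 R31Q/- libraries exceed those of Pax5+/+ and Pax5+/-.

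Between 1 and 2 Mb from Igkj1 the calls were in the other direction, nearly all of them in the Igkv4 family. The 57 segments there summed to 77.5 and 94.2 TPM in Pax5+/+, 132 and 135 in Pax5+/-, 170 and 192 in Pax5 R31Q/- and 100.5 and 334 in Pax5-/-. Of 39 tested, 12 were higher and none lower in Pax5-/-, and 11 of the 12 were Igkv4 segments, as were 32 of the 39. Some of the 39 passed the filter only through another genotype than Pax5+/+, so a decrease of these could hardly be called. The counts are therefore no support for a rise. Of the 7 tested segments of other families, 1 was higher, and the 24 segments of other families summed to 44.4 and 174 TPM in Pax5-/- and 50.2 and 72.2 TPM in Pax5+/+, which overlapped. Igkv4-63 (chr6:69377944-69378472) had no read in Pax5+/+ and was at 5.66 and 14.5 TPM in Pax5-/-, on 92 reads (adjusted p = 0.0039 by limma). The pseudogene Igkv4-73 was at 0.602 and 0.675 TPM in Pax5+/+ and at 10.6 and 16.4 TPM in Pax5-/-, a 21.1-fold difference in the mean (adjusted p = 0.00029 by limma). Igkv13-78-1, also a pseudogene, was without a read in Pax5+/+ and at 4.98 and 6.02 TPM in Pax5-/-. Igkv1-88, the V segment with the highest level in 6 of 8 libraries, was at 22.0 and 20.9 TPM in Pax5+/+ and at 30.6 and 119 TPM in Pax5-/-. It missed the threshold (adjusted p = 0.065 by limma), and it alone made up 17.9% and 25.0% of kappa V TPM in Pax5-/-.

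Beyond 2 Mb there were calls in both directions. Of the 23 functional segments tested there, 8 were lower and 2 higher in Pax5-/-. Of the 8 pseudogenes tested, 4 were higher, but most pseudogenes passed the filter only through another genotype than Pax5+/+, so this count is no support for a rise. Igkv1-117 (chr6:68121046-68121827) fell from 11.6 and 25.5 TPM to 0.247 and 1.23 TPM, with the largest fitted decrease among the light-chain genes tested in this comparison and 46.7% of its 50-base windows unique (log2 fold change -3.45 ± 0.43 SE, adjusted p = 0.00077 by limma). Igkv16-104 was at 3.61 and 3.62 TPM in Pax5+/+ with no read in Pax5-/-. Igkv9-124 went the other way, from 5.29 and 7.53 TPM to 19.5 and 43.7 TPM, 4.93-fold in the mean (adjusted p = 0.0054 by limma). The pseudogene Igkv2-116 was at 0.397 and 3.34 TPM in Pax5+/+ and at 10.7 and 8.60 TPM in Pax5-/-. Over the whole locus, the 60 pseudogenes summed to 6.01 and 8.92 TPM in Pax5+/+, 14.0 and 14.0 in Pax5+/-, 24.6 and 29.6 in Pax5 R31Q/- and 47.0 and 61.3 in Pax5-/-. The genotypes did not overlap in this sum, and pseudogenes made up 2.61% and 2.56% of kappa V TPM in Pax5+/+ and 27.5% and 12.9% in Pax5-/-.

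Pax5-/- replicates 1 and 2 moved these counts in opposite directions. Without replicate 1 the light-chain genes were 20 lower and 33 higher, and without replicate 2 they were 38 lower and 15 higher. Within 1 Mb of Igkj1, 15 were lower without replicate 1 and 20 without replicate 2, and none was higher in either fit. At 1 to 2 Mb, 22 were higher and none lower without replicate 1, and 10 were higher and 4 lower without replicate 2. Ms4a1 (CD20), a marker of later B cells, was at 0.234 and 0.190 TPM in Pax5-/- and 14.0 and 25.8 TPM in Pax5+/+. Fcer2a and Cd2 were also lower in Pax5-/-, and the study describes Cd2 as directly activated by Pax5. Of the 9 tested markers of small pre-B and immature B cells, 4 fell and 2 rose. The 10 markers of this list that were found summed to 463 and 528 TPM in Pax5+/+ and 992 and 1393 TPM in Pax5-/-. The part of small pre-B and immature B cells in the loss of kappa V transcripts was not tested.

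**Figure D4:**
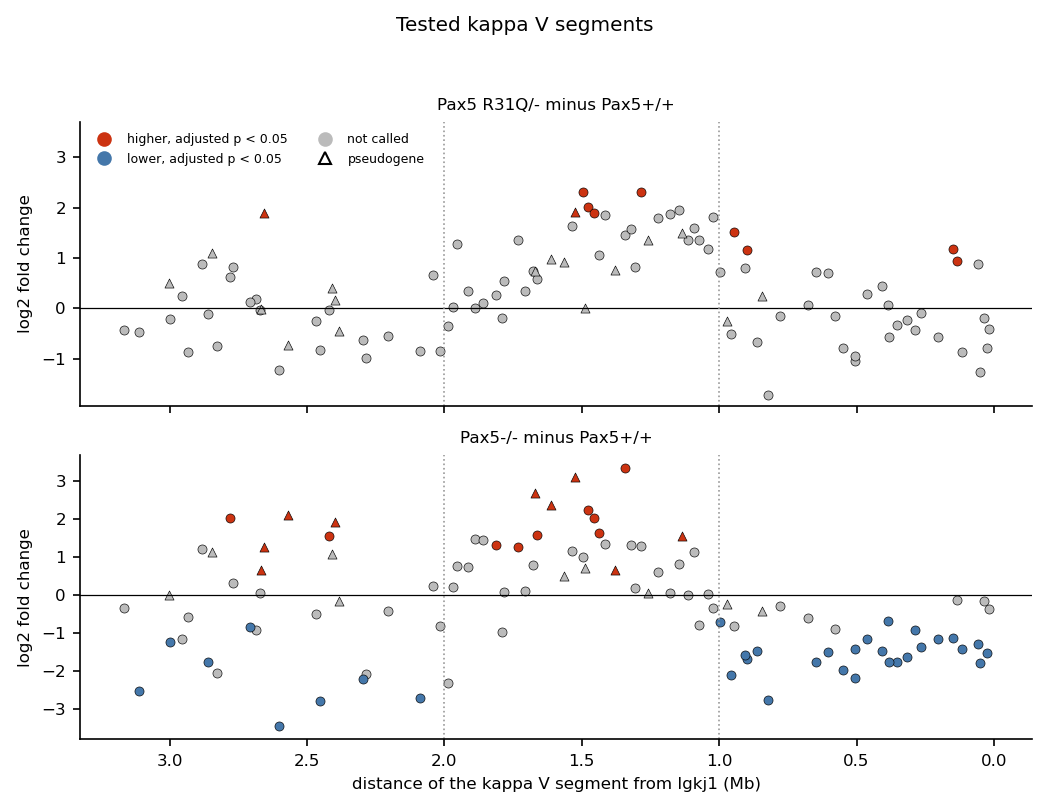
Log2 fold change against Pax5+/+ (vertical axis, log2(TPM + 1) scale) of the tested kappa V segments against their distance from Igkj1 (Mb, horizontal axis, J segments to the right), for Pax5 R31Q/- above and Pax5-/- below. All 25 segments called lower within 1 Mb belong to Pax5-/-, and both genotypes have higher calls between 1 and 2 Mb, where Pax5 R31Q/- has 5 and Pax5-/- has 12.

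In Pax5 R31Q/- cells 10 light-chain genes, all kappa V segments, were higher than in Pax5+/+ and none lower. These were 8.40% of the 119 tested, against a background of 1.62% of all genes called higher and 2.55% called lower in this comparison. The median log2 fold change was 0.34 over the members and 0.04 over all genes. The 10 were Igkv4-59, Igkv4-70, Igkv4-71, Igkv4-72 and Igkv4-73 of the Igkv4 family, with Igkv3-9, Igkv3-10, Igkv5-43, Igkv5-45 and the pseudogene Igkv14-118-2. Igkv4-72 (chr6:69226854-69227433) was at 1.43 and 1.40 TPM in Pax5+/+, 4.03 and 3.67 in Pax5+/-, 11.4 and 10.6 in Pax5 R31Q/- and 1.98 and 6.87 in Pax5-/-. The R31Q/- libraries stood above all others, 7.78-fold over Pax5+/+ in the mean (log2 fold change 2.31 ± 0.39 SE, adjusted p = 0.020 by limma). Igkv4-71 was at 0.406 and 0.228 TPM in Pax5+/+ and at 3.45 and 5.39 TPM in Pax5 R31Q/-, so it passed the filter only through another genotype than Pax5+/+.

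The calls in Pax5 R31Q/- rested on few reads and changed with the libraries fitted. Without either Pax5 R31Q/- library or without Pax5+/+ replicate 2 no light-chain gene was called higher, and without Pax5+/+ replicate 1 there were 2. Leaving out a Pax5-/- library instead gave 22 and 24, with 9 of the 10 still called in each, and leaving out a Pax5+/- library gave 6 in each, with 5 of the 10 still called. In each of these refits that kept both genotypes, the 10 genes kept a positive log2 fold change. A median of 47.8% of the 50-base windows of the 10 were found once in the light-chain loci, from 14.8% for Igkv4-59 up to 97.5%. For those with few unique windows, the assignment of reads among near copies is uncertain. Among segments with at least 50% of their windows unique, 5 were called higher.

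The summed level of the Igkv4 family was lowest in Pax5+/+. Its 33 segments, all between 1 and 2 Mb from Igkj1 and all on the strand opposite to Igkc, summed to 27.2 and 22.0 TPM in Pax5+/+, 68.4 and 70.2 in Pax5+/-, 116 and 134 in Pax5 R31Q/- and 56.1 and 160.5 in Pax5-/-. The Pax5+/+, Pax5+/- and Pax5 R31Q/- libraries did not overlap, and the means of Pax5+/- and Pax5 R31Q/- were 2.82-fold and 5.08-fold of that in Pax5+/+. The Pax5-/- libraries were wide apart, on either side of both. By limma, 5 of the 32 tested Igkv4 segments were higher in Pax5 R31Q/- and 11 in Pax5-/- than in Pax5+/+, and none was called between Pax5+/- and either Pax5+/+ or Pax5 R31Q/-, where 7 and 10 had an unadjusted p below 0.05. The sum rests on 101 to 139 reads in Pax5+/+ and 599 to 671 in Pax5 R31Q/-. With 2 libraries against 2, an exact permutation test of such a sum cannot go below p = 0.333, and none is given. The other 127 kappa V segments summed to 203 and 326 TPM in Pax5+/+ and 232 and 220 TPM in Pax5 R31Q/-, which overlapped. The Igkv4 share of kappa V TPM was 11.8% and 6.31% in Pax5+/+, 15.9% and 20.0% in Pax5+/-, 33.4% and 37.8% in Pax5 R31Q/- and 32.8% and 33.7% in Pax5-/-.

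The octamer, the binding motif of the factors Oct-1 and Oct-2 with their coactivator OBF-1, is a hallmark of V gene promoters. The motif ATTTGCAT was searched on both strands from 250 bases before to 50 bases after each annotated start. It was present at 94 of 160 kappa V segments (58.8%) and at 30 of 33 Igkv4 segments, against 570 of 32851 promoters of the same length in the RefSeq table (1.74%). Among kappa V segments, 73 of 100 functional ones and 21 of 60 pseudogenes held it. It was found at 17 of the 33 segments lower in Pax5-/-, 16 of the 18 higher in Pax5-/- and 9 of the 10 higher in Pax5 R31Q/-. Of the 18 and the 10 higher segments, 11 and 5 were Igkv4 segments, so these shares cannot be told apart from membership of that family. Stretches of 60 bases around the motif (in capitals) are shown for segments that rose in 1 or both genotypes, to show the near identity within Igkv4, and for segments that fell in Pax5-/-. Only exact matches were sought, and segments without one, such as Igkv1-117, are not shown. All stretches are from GRCm38 and are written on the strand of the segment.
Igkv4-72, higher in Pax5 R31Q/- (chr6:69227457-69227516, minus strand): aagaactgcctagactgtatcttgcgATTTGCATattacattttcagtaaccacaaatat
Igkv4-71, higher in both (chr6:69243762-69243821, minus strand): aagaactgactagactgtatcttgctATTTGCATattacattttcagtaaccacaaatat
Igkv4-63, higher in Pax5-/- (chr6:69378546-69378605, minus strand): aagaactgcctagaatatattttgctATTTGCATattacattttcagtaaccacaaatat
Igkv4-77, higher in Pax5-/- (chr6:69111506-69111565, minus strand): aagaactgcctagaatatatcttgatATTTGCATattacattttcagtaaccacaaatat
Igkv2-109, higher in Pax5-/- (chr6:68302306-68302365, plus strand): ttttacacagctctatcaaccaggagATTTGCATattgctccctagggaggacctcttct
Igkv3-10, lower in Pax5-/- and higher in Pax5 R31Q/- (chr6:70572514-70572573, plus strand): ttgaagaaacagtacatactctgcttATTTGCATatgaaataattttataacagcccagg
Igkv5-43, lower in Pax5-/- and higher in Pax5 R31Q/- (chr6:69823986-69824045, minus strand): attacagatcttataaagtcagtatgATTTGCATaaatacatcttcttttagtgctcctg
Igkv16-104, lower in Pax5-/- (chr6:68425478-68425537, plus strand): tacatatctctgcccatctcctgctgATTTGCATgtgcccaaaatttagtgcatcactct
A match is a description of the letters and not of binding.

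Igkv3-10 and Igkv5-43 were called higher in Pax5 R31Q/- and lower in Pax5-/- than in Pax5+/+. Igkv3-10 (chr6:70572633-70573230) was at 1.38 and 1.54 TPM in Pax5+/+, 4.04 and 2.83 in Pax5+/-, 5.51 and 3.82 in Pax5 R31Q/- and 0.273 and 0 in Pax5-/-. Igkv5-43 was at 3.03 and 2.55 TPM in Pax5+/+, 4.66 and 5.65 in Pax5+/-, 8.90 and 6.20 in Pax5 R31Q/- and 0 and 0.373 in Pax5-/-. In the direct comparison of Pax5 R31Q/- with Pax5-/- the log2 fold changes were 2.31 ± 0.24 and 2.85 ± 0.24 (SE). Their sign followed from the 2 calls by which these genes were picked, so this comparison is no further support. The 2 comparisons against Pax5+/+ share their control libraries. The higher call of both genes in Pax5 R31Q/- was lost by limma-voom on the recovered reads (adjusted p = 0.13 and 0.10), with a pseudocount of 0.1 TPM (0.21 and 0.30), without a filter, with a filter of 5 TPM, and without any 1 library of Pax5+/+, Pax5+/- or Pax5 R31Q/-, with the log2 fold change positive in each. Of the 10 segments, limma-voom called 6, all but Igkv3-9, Igkv3-10, Igkv5-43 and Igkv5-45. Igkv4-70, Igkv4-71, Igkv4-73 and Igkv14-118-2 were called higher in both.

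Directly compared, Pax5 R31Q/- and Pax5-/- differed in 44 light-chain genes, 30 higher and 14 lower in Pax5 R31Q/-. These were 25.2% and 11.8% of the 119, against 19.9% and 14.7% of all genes. The counts changed with single libraries, to 16 higher and 7 lower without Pax5 R31Q/- replicate 1, 14 and 7 without Pax5 R31Q/- replicate 2, 22 and 16 without Pax5-/- replicate 1, and 47 and 9 without Pax5-/- replicate 2. The 30 higher genes were Igkj2 and 29 functional V segments, 19 of them within 1 Mb of Igkj1, where none of the 34 tested was lower. Igkv12-44 was at 4.12 and 4.21 TPM in Pax5 R31Q/- without a read in Pax5-/-. The 14 lower genes were Iglc1, Iglc3, Iglj1, Iglj3 and 10 V segments, among them the pseudogenes Igkv2-116 and Igkv2-107.

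Heterozygous cells differed little by the test, although several sums were higher. No light-chain gene was called between Pax5+/- and Pax5+/+, where 0.0223% of all genes were lower and none higher. By limma 25 of the 119 had an unadjusted p below 0.05, against 814 of all 13436 genes, and limma-voom on the recovered reads also called 0. The V segments within 1 Mb of Igkj1 summed to 116 and 108 TPM in Pax5+/- and 67.1 and 69.0 TPM in Pax5+/+, without overlap and 1.64-fold apart in the mean. Igkv12-44 was at 7.16 and 11.6 TPM in Pax5+/- and 2.15 and 1.81 TPM in Pax5+/+. Pax5 R31Q/- differed from Pax5+/- in no called light-chain gene, at 0.35% of all genes lower and 0.268% higher, with 33 of the 119 at an unadjusted p below 0.05, against 1181 of all 13436 genes. In that pair the V segments within 1 Mb were lower in both Pax5 R31Q/- libraries, at 75.3 and 65.4 TPM.

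Pax5 peaks were listed along both loci in cultured pro-B cells. The kappa locus from its first V segment to Igkc (chr6:67555497-70726966) held 110 of the 41983 peaks of the Rag2-/- list and 18 of the 18821 peaks of the Pax5 R31Q/- list. That is 34.7 and 5.68 peaks per Mb, against 15.5 and 6.06 per Mb over chromosome 6. The lambda locus held 14 peaks and 1 peak. Of the 110 kappa peaks, 16 (14.5%) overlapped a Pax5 R31Q/- peak, against 37.5% of the whole Rag2-/- list. Seen from the other list, 16 of 18 (88.9%) were shared, against 81.6% of that whole list. With 1 library each and no peak heights, a peak absent from a list may lie just under its threshold.

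Most of the kappa peaks found in the Rag2-/- list alone lay in repeats. Of these 94, 74 were more than 50% soft-masked in the genome, where repeats are in lower case, with a median of 100%. That is 78.7%, near the 72.3% of the 1470 peaks in the Rag2-/- list alone on the rest of chromosome 6. Of the 16 shared Rag2-/- peaks of the locus, 6 were so masked, against 16 of 741 on the rest of the chromosome.

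**Figure D5:**
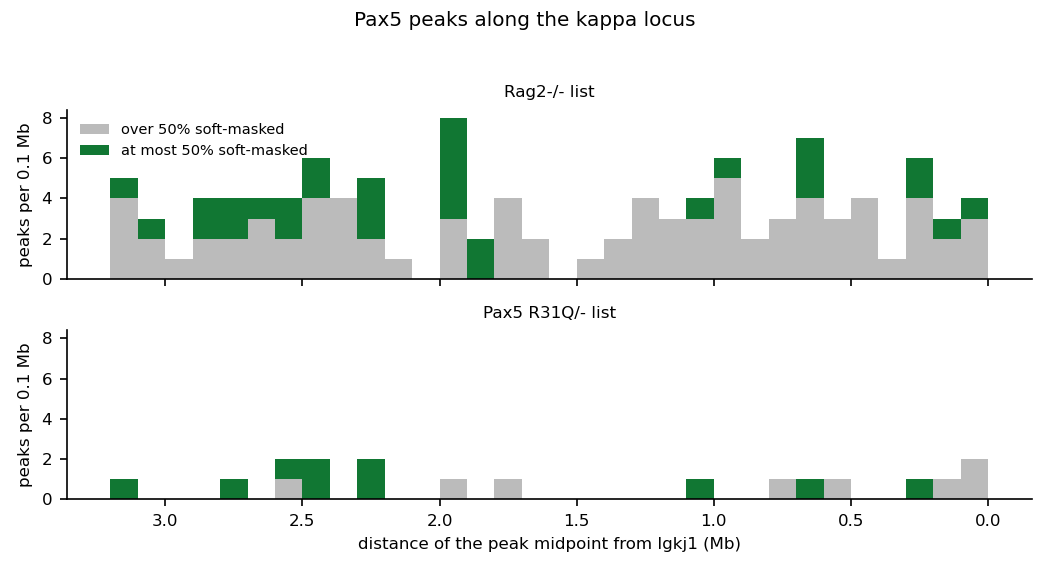
Number of Pax5 peaks per 0.1 Mb (vertical axis) along the kappa locus by distance from Igkj1 (Mb, horizontal axis), for the Rag2-/- list above and the Pax5 R31Q/- list below; grey marks peaks over 50% soft-masked. The Rag2-/- list has 110 peaks, 80 of them grey, and the Pax5 R31Q/- list has 18, 8 of them grey.

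Pax5 peaks near segment starts were counted without a comparison to other genes. Of the 178, 18 had a Rag2-/- peak and 6 a Pax5 R31Q/- peak within 1 kb of the start. Among the kappa V segments lower in Pax5-/-, 5 of 33 (15.2%) had a Rag2-/- peak, against 1 of 18 (5.56%) of those higher and 9 of 53 (17.0%) of those tested and not called. These 5 were Igkv1-117, Igkv3-7, Igkv3-12, Igkv5-48 and Igkv8-30, and none had a Pax5 R31Q/- peak. The 10 segments higher in Pax5 R31Q/- had no peak within 1 kb in either list. Igkv9-124, higher in Pax5-/-, had a peak in both lists (chr6:67942466-67942769 in the Rag2-/- list). No peak of either list fell within 1 kb of a kappa J segment. The last peak upstream of them, chr6:70709277-70710098, was in the Rag2-/- list alone, with its midpoint 12875 bases upstream of Igkj1, in the interval between the V and J segments. Downstream of Igkc, where the 3′ kappa enhancers lie, both lists held a peak 8.46 and 8.51 kb after the end of the gene (chr6:70735425-70735982 and chr6:70735475-70735987).

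Genes that act before or upon the light chain also differed in Pax5-/-. Igll1 and Vpreb1, which encode parts of the surrogate light chain that stands in for a light chain in the pre-B cell receptor, fell, and Vpreb2, the near copy of Vpreb1, was not called. Vpreb3, whose product is no part of that receptor and binds heavy chains inside the cell, was at 4186 and 4361 TPM in Pax5+/+, 2234 and 2240 in Pax5 R31Q/- and 595 and 662 in Pax5-/-, lower in both mutants (adjusted p = 0.0072 for Pax5 R31Q/- by limma). Rag2, a subunit of the recombinase, was at 128 and 132 TPM in Pax5+/+, 133 and 131 in Pax5 R31Q/- and 22.0 and 35.0 in Pax5-/-. Of 18 transcription factors of the light-chain loci, 9 fell and 3, Pax5 itself among them, rose in Pax5-/-. Irf4, which acts at the 3′ kappa and lambda enhancers together with PU.1 or Spi-B, fell from 184 and 146 TPM to 31.1 and 31.1 TPM. Spi1 (PU.1) and Irf8 rose, and Spib fell in both mutants, from 635 and 641 TPM to 296 and 246 TPM in Pax5 R31Q/- and 159 and 266 TPM in Pax5-/-. Pou2af1, which encodes OBF-1, fell from 990 and 1003 TPM to 414 and 515 TPM in Pax5-/-, and was at 1097 and 1009 TPM in Pax5 R31Q/-.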

How the data were processed

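Gene expression was measured in 8 RNA-seq libraries (4 genotypes in duplicate), and lists of Pax5-bound regions came from 1 ChIP-seq library per genotype. The deposited expression values were TPM per gene, which the authors made by joining 3 runs of 50-base single reads, removing ribosomal reads, aligning to mm10 with STAR 2.4.2 and counting uniquely mapped reads with featureCounts. Peaks were called by the authors per library with MACS and Bowtie2 2.3.5.1, and the files hold positions with a score of 0. Symbols, coordinates and exon lengths came from GENCODE annotation of GRCm38 (mm10).

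TPM steps and exon lengths gave whole reads for 917 of 917 member values above 0 (within 0.001 reads). The 178 members, and the gene lists and distance intervals, were chosen with earlier results of these data known. Genes with at least 1 TPM in 1 library were kept (119 members of 13436 genes, 59 members left out), and log2(TPM + 1) was fitted over all 8 libraries with limma 3.58.1 (R 4.3.3) with an intensity trend and Benjamini-Hochberg adjustment over all genes tested, for 5 comparisons. Replicate numbers only name libraries. Nothing states that they are separate mice, so p-values measure the spread between these libraries. Named genes were Igkc, all J and lambda segments, the 8 kappa V segments highest on average and up to 5 called kappa V segments in each direction and comparison; other segments were named after their values were seen. Only segments within 1 kb of a peak were counted as near it. Alternatives covered the pseudocount, filter, scaling, trend, samples fitted, limma-voom on recovered reads, the study's cut-offs (over 3-fold, over 5 TPM) and each library left out.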

Additional observations from a re-analysis of the deposited data

How the results depend on the processing

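The number of light-chain genes higher in Pax5 R31Q/- than in Pax5+/+, 10 as reported, was 1 without a filter (Igkv3-9), 6 with a filter of 5 TPM, 22 (with 2 lower) when only the 2 genotypes were fitted, 3 when over 3-fold and over 5 TPM were also required, and 5 among segments with at least 50% unique windows, an alternative chosen after the data were seen. Leaving out 1 library gave 0 to 24 higher and 0 to 1 lower. For Pax5-/- against Pax5+/+, the 33 lower became 17 with a filter of 5 TPM, and the study's cut-offs left 5 lower and 11 higher; without 1 library the ranges were 20 to 38 lower and 13 to 33 higher. For Pax5+/- against Pax5+/+, 1 gene was higher without a filter (Igkv3-9) and 1 without the trend (Igkv12-44), and 0 without any 1 library. For Pax5 R31Q/- against Pax5+/-, fitting only the 2 genotypes gave 4 lower and 6 higher, and leaving out 1 library gave 0 to 1 lower and 0 to 2 higher. For Pax5 R31Q/- against Pax5-/-, the 14 lower became 9 without a filter, 7 with only the 2 genotypes and 8 under the study's cut-offs, and the 30 higher became 18 with a filter of 5 TPM and 9 under the study's cut-offs; without 1 library the ranges were 7 to 16 and 14 to 47. The filter and the study's cut-offs change the genes that can be called, and the cause of the other shifts was not tested. Without 1 Pax5-/- library, the log2 fold change against Pax5+/+ ran from -2.54 to 0.79 for Igkj3 and from -4.74 to 0.94 for Igkj4, both positive without replicate 1. Of 3179 single-gene values under alternatives, 2966 kept their direction and side of the threshold, 147 lost and 64 gained a call. Median-ratio scaling moved the median of all genes from 0.13 to 0.01 on the log2 scale between Pax5 R31Q/- and Pax5-/-, with 15 lower and 30 higher members. Segments with a peak within 5 kb of the start numbered 43 and 13 in the Rag2-/- and Pax5 R31Q/- lists. No paired analysis was possible because the labels number no replicates and the numbers used here follow accession order, so they only name libraries. Segments near 1 TPM rested on few reads, and no limit of detection was tested.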
